A study of Mus musculus with 8 samples.

Results

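The genes described here act in meiosis, in the chromosome axis, in synapsis and in recombination, and were read out by RNA-seq in mouse embryonic stem cells (mESCs) in which 2 kinds of H3K9 methyltransferase had been removed or inhibited. A list of 36 such genes was taken as given, and 35 of them were found among the 24062 genes of the count files, 30 by symbol and 5 by a RefSeq synonym (Six6os1, Meioc, Majin, Terb1 and Terb2). Rnf212 was not analysed here. Of the 35 genes, 34 had enough reads to be tested and Spo11 did not.

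In meiotic prophase, cohesin complexes with meiotic subunits tie sister chromatids into a protein axis, and the synaptonemal complex then zips homologous axes together while programmed DNA breaks are repaired into crossovers. Most genes of this programme are made in germ cells only, and in somatic and pluripotent cells many are held silent by promoter-bound repressors, DNA methylation and histone methylation. SETDB1 and the G9a/GLP pair, encoded by Ehmt2 and Ehmt1, are enzymes that methylate histone H3 at lysine 9, a mark of silent chromatin, and UNC0642 is an inhibitor of G9a/GLP.

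All 8 libraries came from a single Setdb1 conditional KO mESC line, #33-6, in which 4-hydroxytamoxifen (4-OHT) triggers the deletion, and each of the 4 groups held 2 libraries. WT cells were this line without treatment, UNC0642 cells received 2 µM UNC0642 for 3 days, and Setdb1 KO cells received 800 nM 4-OHT for 5 days. UNC0642-treated Setdb1 KO cells are labelled as 800 nM 4-OHT for 2 days followed by 2 µM UNC0642 for 3 days. No library of cells given 4-OHT without the deletion was analysed here, so effects of 4-OHT and of the deletion cannot be told apart. The cells were kept on gelatin with LIF, and with a single line the p-values cover the spread between these libraries alone.

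Libraries held 11702590 to 26807807 counts over genes and transposable element subfamilies, and 3 counts corresponded to 0.108 to 0.311 CPM (counts scaled to library size, with TMM normalization factors). Setdb1 itself, counted over the whole gene including exons that the deletion may leave, stood at 169 and 127 CPM in WT cells and 130 and 86.3 in UNC0642 cells. With the deletion, values were 47.3 and 51.0 in Setdb1 KO cells and 61.1 and 34.1 in UNC0642-treated Setdb1 KO cells. Its log2 fold change to WT was -1.59 ± 0.44 (SE) in Setdb1 KO cells (edgeR quasi-likelihood test, adjusted p = 0.181, and 0.0164 in a fit that takes the replicate number as a block) and -1.64 ± 0.44 in UNC0642-treated Setdb1 KO cells (0.0746 and 0.00593). Summed over the 8 pluripotency markers, levels ranged from 3834 to 5690 CPM, and none of the 8 was called in any comparison with WT.

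Promoters are shown for 5 of the 6 genes with the smallest p in UNC0642-treated Setdb1 KO cells against WT, because these are the genes on which the comparisons turn (RefSeq, GRCm38.p6, the first listed per gene, from 250 bases before to 50 bases after the start, 5′ to 3′ on the gene's strand). Capitals mark 2 motifs searched on both strands, CACGTG, the E-box bound by MGA/MAX, which reads the same on both strands, and TCCCGC, the core of the E2F6 site, which appears as its reverse complement where it lies on the other strand. The motifs can overlap by an end base only. Terb2 is the sixth gene.
Sycp2 (chr2:178407609-178407908, minus strand): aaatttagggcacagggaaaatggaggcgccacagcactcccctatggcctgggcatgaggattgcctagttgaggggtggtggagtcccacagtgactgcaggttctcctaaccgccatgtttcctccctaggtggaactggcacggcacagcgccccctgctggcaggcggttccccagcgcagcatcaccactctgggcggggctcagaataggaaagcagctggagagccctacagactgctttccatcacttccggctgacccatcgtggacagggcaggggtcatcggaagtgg
Hormad1 (chr3:95559427-95559726, plus strand): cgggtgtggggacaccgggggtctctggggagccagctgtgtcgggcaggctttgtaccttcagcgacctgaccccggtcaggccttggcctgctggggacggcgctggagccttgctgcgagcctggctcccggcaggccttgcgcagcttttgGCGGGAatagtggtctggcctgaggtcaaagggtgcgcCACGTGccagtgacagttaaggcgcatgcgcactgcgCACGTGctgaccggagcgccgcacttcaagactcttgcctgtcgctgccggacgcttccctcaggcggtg
Tex12 (chr9:50561219-50561518, minus strand): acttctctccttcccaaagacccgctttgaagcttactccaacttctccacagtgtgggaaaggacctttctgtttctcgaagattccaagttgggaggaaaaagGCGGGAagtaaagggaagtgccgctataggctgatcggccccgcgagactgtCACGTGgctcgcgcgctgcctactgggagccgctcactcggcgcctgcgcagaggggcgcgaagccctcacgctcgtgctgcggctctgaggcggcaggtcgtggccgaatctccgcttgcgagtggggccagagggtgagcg
Sycp3 (chr10:88459337-88459636, plus strand): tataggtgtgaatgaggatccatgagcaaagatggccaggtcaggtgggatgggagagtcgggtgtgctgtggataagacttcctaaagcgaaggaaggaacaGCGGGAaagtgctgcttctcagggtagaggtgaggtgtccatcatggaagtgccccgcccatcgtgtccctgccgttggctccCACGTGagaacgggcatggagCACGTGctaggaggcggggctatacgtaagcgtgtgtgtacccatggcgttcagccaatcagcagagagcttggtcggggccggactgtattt
Rec8 (chr14:55617916-55618215, plus strand): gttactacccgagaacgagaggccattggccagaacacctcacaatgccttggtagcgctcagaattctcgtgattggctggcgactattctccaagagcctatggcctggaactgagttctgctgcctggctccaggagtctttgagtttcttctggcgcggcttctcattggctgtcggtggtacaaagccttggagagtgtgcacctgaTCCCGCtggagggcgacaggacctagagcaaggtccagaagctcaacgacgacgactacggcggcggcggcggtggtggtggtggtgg
The Hormad1 and Sycp3 windows each held 2 E-boxes and 1 E2F6 core, the Tex12 window held 1 of each, the Rec8 window held 1 E2F6 core, and the Sycp2 window held neither motif. An E-box was found in 7 of the 29 promoters listed for these meiosis genes (24.1%), against 7.24% of the 27025 promoters of the same length listed for all genes. The E2F6 core was found in 18 of the 29 (62.1%), against 20.02% of all promoters. Both motifs were found in 5 of the 29 (17.2%), against 2.05% of all promoters, and these 5 were Sycp1, Tex12, Sycp3, Hormad1 and Stag3. For comparison, 14 promoters of mitotic counterparts and shared repair genes held the E2F6 core in 11 (78.6%) and the E-box in 1 (7.14%). The median number of CpG dinucleotides was 18 in the meiosis gene promoters, 30.5 in those of the mitotic counterparts and 7 in all promoters.

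A few genes of the chromosome axis and synaptonemal complex rose after Setdb1 deletion. After G9a/GLP inhibition alone no meiosis gene was called, where 0% of all genes were called (0.176% higher with the block, again 0 meiosis genes). In Setdb1 KO cells, Sycp2 and Hormad1 were higher than in WT cells, 2 of 34 tested, where 0.882% of all 15313 tested genes were called higher. In UNC0642-treated Setdb1 KO cells, 5 of 34 were higher (Sycp2, Tex12, Hormad1, Sycp3 and Terb2), where 3.08% of all genes were higher, and Rec8 was lower, where 0.535% of all genes were lower. Taking replicate number into the fit as a block, edgeR called 11 higher in Setdb1 KO cells, where 2.8% of all genes were higher, and 11 higher and 2 lower in UNC0642-treated Setdb1 KO cells, where 8.09% were higher and 7.63% were lower. In the fit without the block, the calls against WT were lost when either WT library was left out. Fewer remained without either library of the deleted group compared. How far calls over all genes were lost in those fits is not given here. In bulk RNA, a gene made in more cells and a gene made at a higher level per cell cannot be told apart.

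In Setdb1 KO cells 0 meiosis genes were called lower, at edgeR's threshold and with 0 lower at an unadjusted p under 0.05, where 0.00653% of all genes were called lower (0.522% with the block, again 0 meiosis genes). At that unadjusted p, 265 of all 15313 genes were lower. Requiring a fold change above 10 as the study did left 1 gene, Sycp2, in Setdb1 KO cells, where 0.731% of all genes were higher, and left Sycp2 and Tex12 higher and 0 lower with UNC0642 added, where 2.61% were higher and 0.202% lower. DESeq2 on the 4 libraries of each comparison called 11 and 10 higher in these groups, where 2.28% and 5.07% of all genes were higher. The median log2 fold change of the 34 tested genes was 1.16 in Setdb1 KO cells, 0.14 in UNC0642-treated Setdb1 KO cells and -0.07 in UNC0642 cells, against -0.06, -0.06 and -0.04 for all genes. Of the 34, 26 reached the level of the expression filter, 0.436 CPM without TMM factors, in both WT libraries. The other 8 (Tex12, Sycp2, Rad21l, Mei1, Meiob, Spata22, Msh4 and Hfm1) were below it in at least 1 WT library and were tested because of reads elsewhere, so the counts and medians over tested genes do not describe the whole list.

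**Figure D1:**
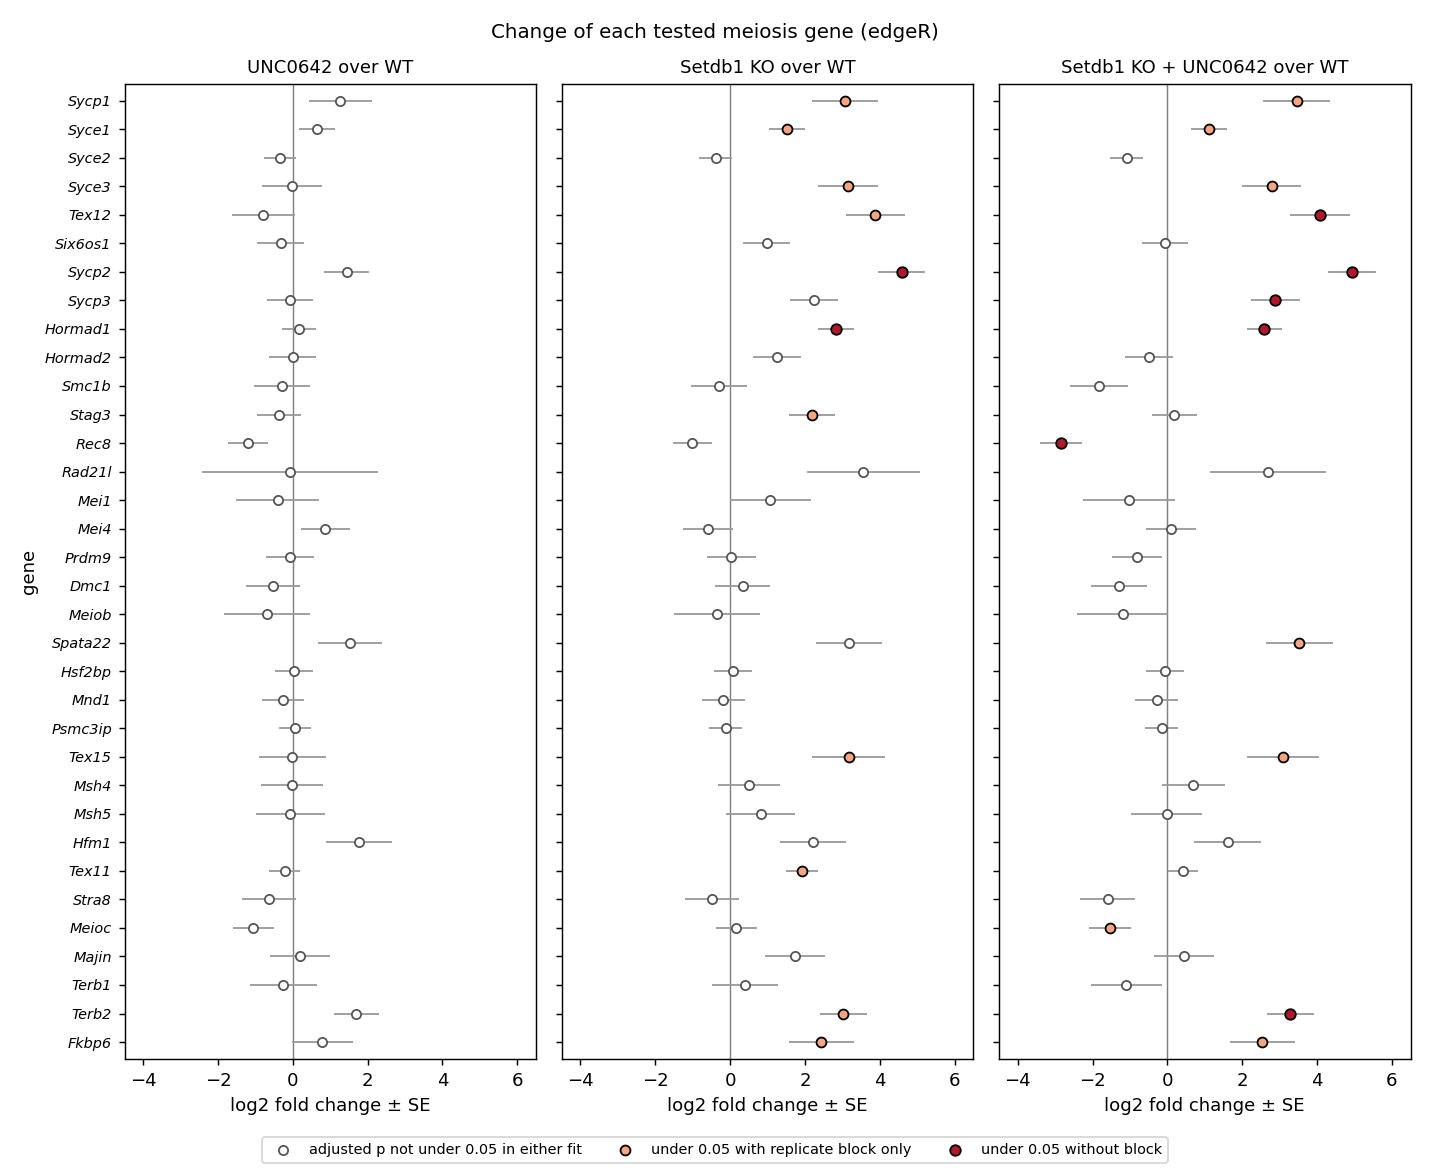
Log2 fold change to WT with its standard error for the 34 tested meiosis genes, from edgeR, in UNC0642 cells, Setdb1 KO cells and UNC0642-treated Setdb1 KO cells. Filled red points are called without the replicate block and orange points only with it: no point is filled for UNC0642, 2 are red for Setdb1 KO, and 6 are red, Rec8 to the left of 0, for both together. For genes near 0 counts in WT, such as Rad21l, the plotted value depends on the prior count.

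The axis gene Sycp2, which encodes a lateral element protein of the synaptonemal complex (chr2:178345293-178407685, minus strand, GRCm38), rose most among the called genes. Its level was 0.348 and 0.325 CPM in the WT libraries (4 and 9 counts), 1.08 and 0.755 CPM in UNC0642 cells, 9.10 and 7.21 CPM in Setdb1 KO cells and 9.13 and 11.7 CPM in UNC0642-treated Setdb1 KO cells. Both UNC0642 libraries were above both WT libraries, and all 4 libraries of deleted cells were above these. The log2 fold change to WT was 4.58 ± 0.63 in Setdb1 KO cells (edgeR adjusted p = 0.0125) and 4.94 ± 0.64 in UNC0642-treated Setdb1 KO cells (adjusted p = 0.00573). The ratio of mean CPM to WT was 24.2 and 31.0 in these groups. Per kilobase of exon, Sycp2 stayed low even so, at a mean of 1.37 and 1.75 RPKM.

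Hormad1, an axis protein that watches over unsynapsed chromosomes (chr3:95559677-95587671, plus strand, 202 kb from Setdb1), was already present in WT cells. Its levels were 36.7 and 20.7 CPM in WT cells and 34.6 and 29.4 in UNC0642 cells. Without Setdb1, they were 223 and 183 in Setdb1 KO cells and 125 and 220 in UNC0642-treated Setdb1 KO cells. The WT and UNC0642 libraries overlapped, and every library of deleted cells stood above them. The log2 fold change to WT was 2.82 ± 0.48 in Setdb1 KO cells (edgeR adjusted p = 0.0291) and 2.59 ± 0.47 in UNC0642-treated Setdb1 KO cells (adjusted p = 0.0179). In mean RPKM it was the highest of the 35 genes in both deleted groups, 117 ± 16.3 and 99.8 ± 39.1 (SD, n = 2), while in WT cells, at 16.6 ± 6.57, it was the fourth.

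Sycp3, the other lateral element gene (chr10:88459569-88473236, plus strand), stood at 17.4 and 5.01 CPM in WT cells and 13.9 and 7.23 in UNC0642 cells. Once Setdb1 was deleted, levels were 38.3 and 67.8 in Setdb1 KO cells and 73.5 and 90.8 in UNC0642-treated Setdb1 KO cells. The ratio between replicates was widest in WT cells, and no library of deleted cells overlapped with WT. Sycp3 was called in UNC0642-treated Setdb1 KO cells, with a log2 fold change of 2.88 ± 0.66 (edgeR adjusted p = 0.0436), while in Setdb1 KO cells it was 2.25 ± 0.64 (edgeR adjusted p = 0.198, and 0.0595 with the block). DESeq2 on the 4 libraries compared called it in Setdb1 KO cells (adjusted p = 0.0334). Its exons overlap those of Chpt1 on the opposite strand by 660 bases, and as the strand setting of the counting is not given in the sources used here, reads from the shared stretch cannot be told apart. Hormad2, the paralogue of Hormad1, stayed between 1.14 and 6.18 CPM, with log2 fold changes of 1.25 ± 0.64 in Setdb1 KO cells and -0.49 ± 0.64 with UNC0642 added, neither called.

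**Figure D2:**
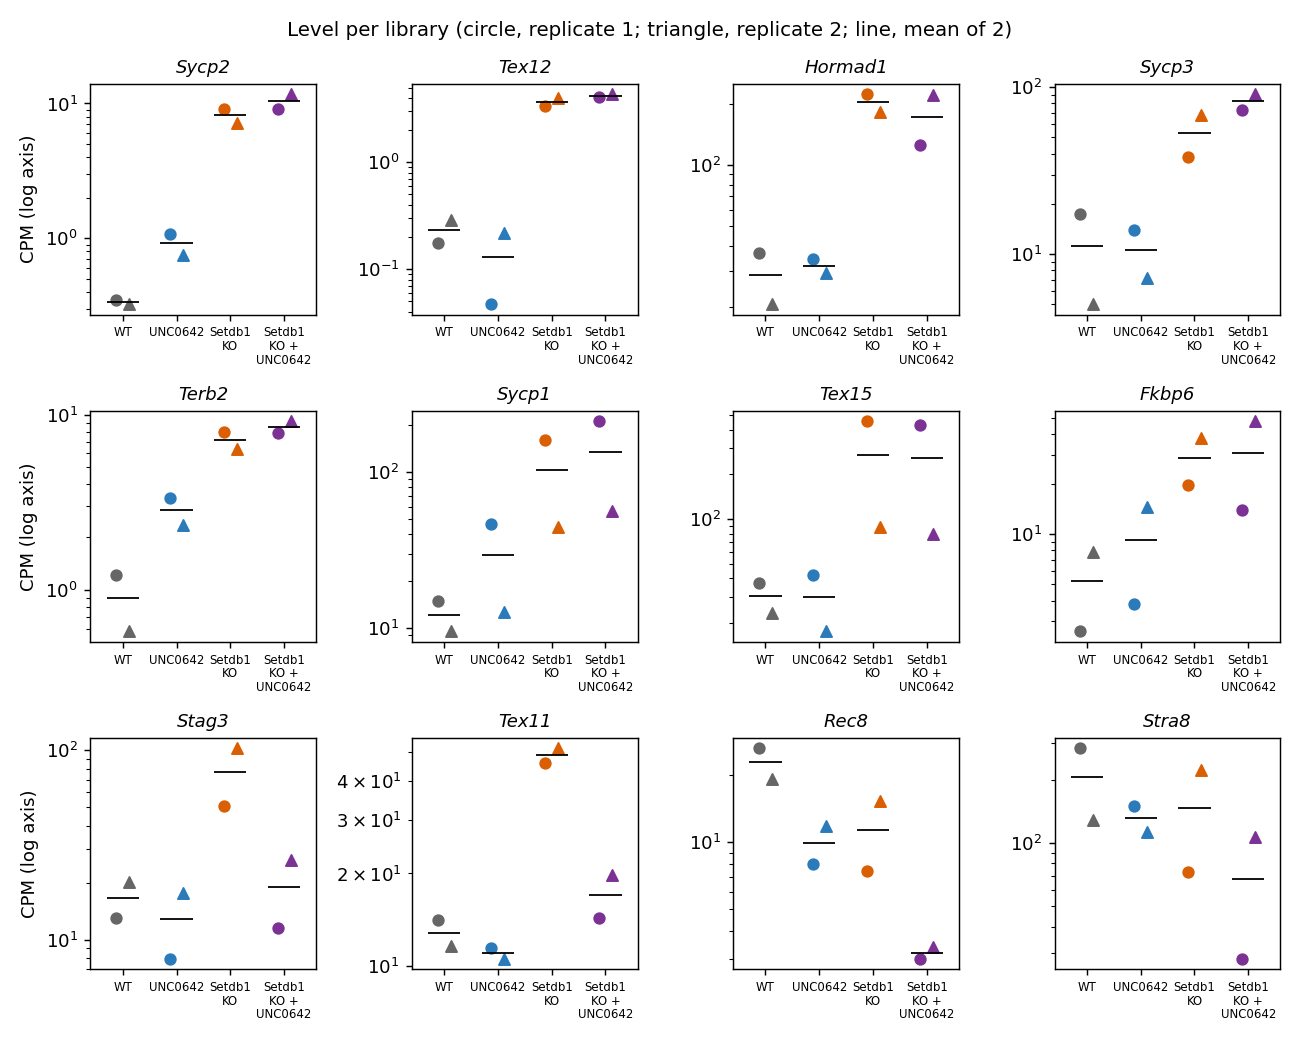
TMM-normalized CPM per library, on a log axis, for 12 meiosis genes in the 4 groups; circles are replicate 1, triangles replicate 2, and lines the mean of 2. Sycp2, Tex12, Hormad1, Sycp3 and Terb2 sit higher in all 4 libraries of deleted cells than in WT, Sycp1 and Tex15 do so with replicate 1 above replicate 2, Stag3 and Tex11 are high in Setdb1 KO cells alone, and Rec8 is lowest with both perturbations.

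Among the 6 genes of the synaptonemal complex's transverse filament and central element, 5 had positive log2 fold changes in Setdb1 KO cells and the median was 2.29. Tex12, a central element protein (chr9:50556819-50561325, minus strand), was at 0.174 and 0.289 CPM in WT cells (2 and 8 counts) and 0.0470 and 0.216 in UNC0642 cells, at or near the floor of 3 counts. It reached 3.34 and 3.96 CPM in Setdb1 KO cells (79 and 72 counts) and 4.05 and 4.34 in UNC0642-treated Setdb1 KO cells (39 and 118 counts). It thus went from at most 8 to at least 39 counts per library in every library of deleted cells. The log2 fold change to WT was 4.08 ± 0.79 in UNC0642-treated Setdb1 KO cells (edgeR adjusted p = 0.0232), and 3.88 ± 0.79 in Setdb1 KO cells, where the adjusted p was 0.0592 and, with the block, 0.00931.

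Sycp1, the transverse filament protein that bridges the homologous axes, was at 14.9 and 9.52 CPM in WT cells and 46.1 and 12.8 in UNC0642 cells. In the deleted cells values were 160 and 44.6 in Setdb1 KO cells and 211 and 56.3 in UNC0642-treated Setdb1 KO cells. Replicate 1 stood above replicate 2 in all 4 groups, and the rise over WT was 10.8-fold within replicate 1 and 4.68-fold within replicate 2 for Setdb1 KO cells, and 14.2-fold and 5.92-fold with UNC0642 added. Sycp1 was not called by edgeR without the block (edgeR adjusted p = 0.205 and 0.0685) and was called with it (0.00364 and 0.00116, at log2 fold changes of 2.76 ± 0.35 and 3.13 ± 0.36). DESeq2 on the 4 libraries compared, without a block, called it in both groups (adjusted p = 0.000418 and 2.7e-05). Syce3, a central element protein, went from 0.958 and 0.577 CPM in WT cells to 6.43 and 6.93 in Setdb1 KO cells and 3.53 and 6.83 with UNC0642 added. It was likewise called by edgeR with the block (adjusted p = 0.0296 and 0.0245) and not without it (0.136 and 0.0925), and by this DESeq2 fit (0.00128 and 0.0144). Syce1, also of the central element, was at 7.49 and 10.97 CPM in WT cells, 28.6 and 24.4 in Setdb1 KO cells and 16.3 and 23.6 with UNC0642 added, with edgeR adjusted p of 0.0305 and 0.0459 with the block, 0.269 and 0.262 without it, and 0.182 and 0.345 by DESeq2.

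The remaining central element genes were not called by edgeR with or without the block, or by DESeq2. Syce2 was among the highest meiosis genes of WT cells, at a mean of 39.5 ± 15.7 RPKM (SD, n = 2), and its log2 fold changes to WT were -0.34, -0.39 and -1.09 in UNC0642, Setdb1 KO and UNC0642-treated Setdb1 KO cells, none called. Six6os1, whose exons overlap Six6 on the opposite strand by 192 bases, had log2 fold changes of -0.33, 0.98 and -0.07. Both its Setdb1 KO libraries, at 33.2 and 22.4 CPM, lay above the WT libraries, at 20.8 and 7.61 CPM.

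The meiotic cohesin subunits split in direction. Rec8, the meiotic kleisin subunit (chr14:55618037-55625395, plus strand), was at 26.4 and 19.3 CPM in WT cells and 8.04 and 11.8 in UNC0642 cells. Levels after deletion were 7.45 and 15.3 in Setdb1 KO cells and 3.01 and 3.38 in UNC0642-treated Setdb1 KO cells. Both single perturbations lay below WT without passing the test, at log2 fold changes of -1.20 ± 0.53 and -1.01 ± 0.53, and both together gave -2.83 ± 0.56 (edgeR adjusted p = 0.0254). The joint log2 change less the sum of both single ones was -0.62 ± 0.74 and did not pass the test (edgeR adjusted p = 1.00).

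Stag3, the meiotic STAG subunit, was at 13.1 and 20.2 CPM in WT cells and 7.94 and 17.7 in UNC0642 cells. With the deletion, values were 50.9 and 102 in Setdb1 KO cells and 11.5 and 26.3 in UNC0642-treated Setdb1 KO cells. It stood above WT in the deleted cells without inhibitor, where the log2 fold change was 2.20 ± 0.62 (edgeR adjusted p = 0.191, 0.00307 with the block, and 0.00956 by DESeq2). It overlapped with WT once the inhibitor was added. Against Setdb1 KO cells, UNC0642-treated Setdb1 KO cells had a Stag3 log2 fold change of -2.01 ± 0.61 (edgeR adjusted p = 0.760). With the block it was -2.04 ± 0.26 (adjusted p = 0.0381), and Stag3 was the only meiosis gene called in that comparison. There the block called 0.00653% of all genes lower and 0.118% higher. The share called lower is 1 gene, Stag3 itself. Smc1b, the meiotic SMC1, was at 55.9 and 11.003 CPM in WT cells and 8.72 and 10.1 with both perturbations, a log2 fold change of -1.82 ± 0.78 that was not called. Rad21l, a second kleisin, had 2 and 0 counts in WT cells and 0 and 3 in UNC0642 cells. Without Setdb1, they were 12 and 20 in Setdb1 KO cells and 6 and 8 with UNC0642 added, too few for a fold change.

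**Figure D3:**
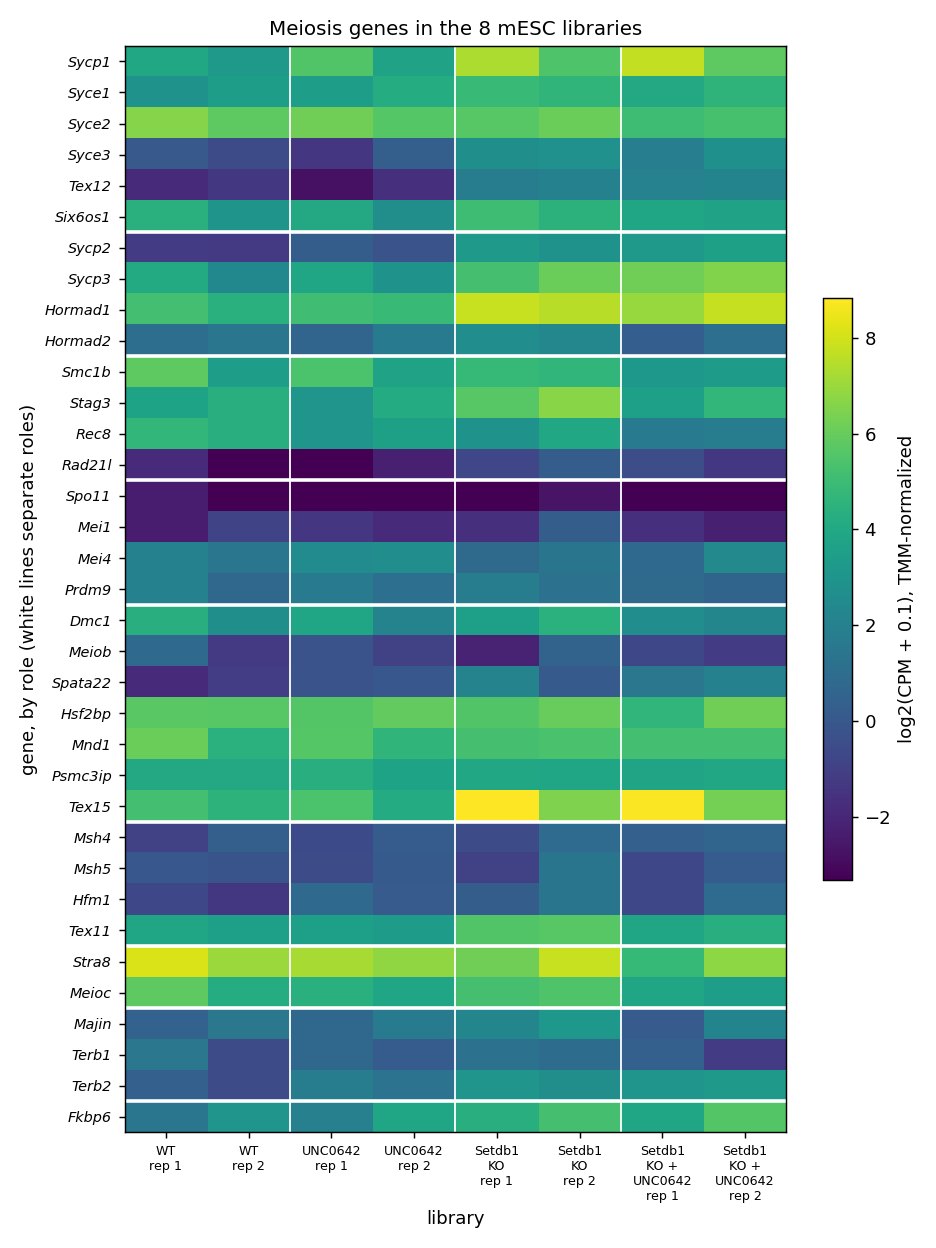
Heat map of the 35 meiosis genes (rows, by role) in the 8 libraries (columns), coloured by log2 CPM after adding a small constant. Stra8 and Syce2 are bright in WT columns, the Hormad1, Tex15 and Sycp1 rows brighten in the columns of deleted cells, and the Spo11 and Mei1 rows stay dark.

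Genes for making the DNA breaks stayed low. Spo11, the enzyme that cuts the DNA, had 1 count in 1 WT library, 1 count in 1 Setdb1 KO library and 0 elsewhere. Mei4 and Mei1, which Spo11 needs, and Prdm9, the methyltransferase that sets where the breaks fall, had log2 fold changes between -0.59 and 1.07 in Setdb1 KO cells and between -1.03 and 0.09 in UNC0642-treated Setdb1 KO cells, and 0 of the 3 tested were called by edgeR with or without the block.

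Among the 7 strand exchange and repair genes, Tex15 and Spata22 were called higher by edgeR with the block and by DESeq2 without one, and 0 were called by edgeR without the block. Tex15, needed in the male germline for repair of the breaks, was at 37.1 and 23.4 CPM in WT cells and 42.1 and 17.6 in UNC0642 cells. Once Setdb1 was deleted, levels were 455 and 88.2 in Setdb1 KO cells and 433 and 79.5 in UNC0642-treated Setdb1 KO cells. As for Sycp1, replicate 1 of the deleted cells stood far above replicate 2: the rise over WT was 12.3-fold and 3.77-fold within the replicates for Setdb1 KO cells and 11.7-fold and 3.39-fold with UNC0642 added. Its edgeR adjusted p was 0.241 and 0.122 without the block and 0.0118 and 0.00704 with it, at log2 fold changes of 2.72 ± 0.45 and 2.61 ± 0.45, and DESeq2 gave 0.000761 and 0.000876.

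Spata22, a partner of the single-strand binding protein Meiob, was at 0.174 and 0.361 CPM in WT cells and 0.752 and 0.899 in UNC0642 cells. In the deleted cells values were 4.19 and 0.990 in Setdb1 KO cells and 2.70 and 3.90 in UNC0642-treated Setdb1 KO cells. With the block it was called in the last group, at a log2 fold change of 3.49 ± 0.81 (edgeR adjusted p = 0.0231, and 0.0629 without the block), and DESeq2 gave an adjusted p of 0.00762. Its exons share 1025 bases on the same strand with a further annotated gene, Gm49340, that is absent from the count files, so reads of the pair cannot be told apart. Meiob itself did not follow, at 1.65 and 0.325 CPM in WT cells and 0.127 and 1.38 in Setdb1 KO cells. Mnd1, Hsf2bp and Psmc3ip, which help the recombinases to invade the homologue, were at a mean of 51.2, 14.5 and 8.85 RPKM in WT cells already, and their log2 fold changes to WT lay between -0.29 and 0.08 in the 3 comparisons. The exons of Hsf2bp and Psmc3ip overlap Rrp1b (54 bases) and Mlx (385 bases) on the opposite strand. Dmc1, the meiosis-specific recombinase, varied between 4.17 and 21.9 CPM and was not called, with log2 fold changes of -0.53, 0.33 and -1.29.

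Of the crossover genes, Tex11, an X-linked gene for a crossover factor, showed the same order of groups as Stag3. Its levels were 14.1 and 11.5 CPM in WT cells and 11.4 and 10.54 in UNC0642 cells. Levels after deletion were 46.0 and 51.3 in Setdb1 KO cells and 14.3 and 19.7 in UNC0642-treated Setdb1 KO cells. The Setdb1 KO libraries stood apart from the other 6. The log2 fold change was 1.92 ± 0.42 in Setdb1 KO cells (edgeR adjusted p = 0.0798, 0.00749 with the block, and 0.0159 by DESeq2), and adding UNC0642 to Setdb1 KO cells gave -1.51 ± 0.41 (adjusted p = 0.690, and 0.121 with the block). Msh4 and Msh5, which form the complex that stabilizes crossover intermediates, and the helicase gene Hfm1 ranged from 0.289 to 2.59 CPM and were not called. Both Hfm1 libraries of UNC0642 cells and of Setdb1 KO cells stood above WT, at log2 fold changes of 1.77 ± 0.89 and 2.22 ± 0.89. With both perturbations Hfm1 overlapped with WT (1.61 ± 0.89). It was below the filter level in at least 1 WT library.

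The entry genes were on in WT cells. Stra8, the retinoic acid-induced gatekeeper of meiosis, had the highest mean RPKM of the 35 genes in WT cells, 114 ± 59.8 (SD, n = 2). Its CPM values were 282 and 129 in WT cells and 150 and 113 in UNC0642 cells. With the deletion, values were 73.0 and 222 in Setdb1 KO cells and 28.2 and 107 in UNC0642-treated Setdb1 KO cells. Replicates lay far apart in every group but UNC0642 cells, and Stra8 was not called (log2 fold change to WT of -1.59 ± 0.73 with both perturbations). Meioc, which keeps germ cells in meiotic prophase, was at 55.5 and 18.5 CPM in WT cells and 21.2 and 14.2 in UNC0642 cells. Without Setdb1, they were 37.6 and 45.3 in Setdb1 KO cells and 14.3 and 11.2 with both perturbations. It was called lower in the last group with the block (log2 fold change -1.42 ± 0.41, edgeR adjusted p = 0.0481) and not without it (-1.53 ± 0.56, adjusted p = 0.180).

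Majin, Terb1 and Terb2 fasten telomeres to the nuclear envelope, and Terb2 alone among them was called. Terb2 (chr2:122186272-122206397, plus strand) was at 1.22 and 0.577 CPM in WT cells (14 and 16 counts) and 3.34 and 2.34 in UNC0642 cells. Once Setdb1 was deleted, levels were 7.96 and 6.33 in Setdb1 KO cells and 7.89 and 9.15 in UNC0642-treated Setdb1 KO cells. Both UNC0642 libraries lay between the WT libraries and those of deleted cells. The log2 fold change to WT was 1.70 ± 0.60 in UNC0642 cells (edgeR adjusted p = 1.00), 3.03 ± 0.62 in Setdb1 KO cells (adjusted p = 0.0639, and 0.00713 with the block) and 3.28 ± 0.63 in UNC0642-treated Setdb1 KO cells (adjusted p = 0.0222). Majin and Terb1 had log2 fold changes of 0.44 and -1.10 in the last group. In Setdb1 KO cells these were 1.74 ± 0.81 and 0.40 ± 0.89, and both Majin libraries there stood above WT. Neither gene was called by edgeR with or without the block, or by DESeq2.

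Fkbp6, a co-chaperone found at synapsed chromosome cores, was at 2.61 and 7.86 CPM in WT cells and 3.81 and 14.5 in UNC0642 cells. In the deleted cells values were 19.7 and 37.8 in Setdb1 KO cells and 14.01 and 47.5 in UNC0642-treated Setdb1 KO cells. Replicate 2 was above replicate 1 in all 4 groups, and within the replicates the rise over WT was 7.54-fold and 4.81-fold in Setdb1 KO cells and 5.36-fold and 6.04-fold with UNC0642 added. The edgeR adjusted p was 0.357 and 0.154 without the block, and 0.00381 and 0.00236 with it, and DESeq2 gave 0.0148 and 0.0128.

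In UNC0642 cells alone, 0 of the 34 tested genes were called by edgeR in either direction, as were 0% of all genes. At an unadjusted p under 0.05, 2 were higher (Terb2 and Sycp2, log2 fold changes of 1.70 and 1.44) and 1 was lower (Rec8, -1.20). Of all 15313 genes, 458 were higher and 64 lower at that p. DESeq2 on the same libraries called 0, with a smallest adjusted p of 9.0e-15 over all genes. Its share of all genes called is not given here. With the block 0 were called, where 0.176% of all genes were called higher. Adding the deletion to UNC0642 cells raised Sycp2, Tex12 and Hormad1, 3 of 34, where 0.869% of all genes were higher, with log2 fold changes of 3.50 ± 0.57, 4.88 ± 0.82 and 2.43 ± 0.47 over UNC0642 cells (edgeR adjusted p = 0.0269, 0.0297 and 0.0487). With the block Sycp1, Syce3, Sycp3, Tex15 and Fkbp6 were called as well, 8 in all, where 2.91% of all genes were higher, and DESeq2 on the 4 libraries compared called 6, where 2.6% were higher. In the same comparison 0 meiosis genes were called lower by edgeR with or without the block, where 0.0392% of all genes were called lower (0.882% with the block). At an unadjusted p under 0.05 without the block 1 was lower, against 438 of all 15313 genes. These comparisons share groups, so their calls are not independent of each other.

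Setdb1 KO cells with and without UNC0642 also differed in their labelled 4-OHT exposure, 2 against 5 days, and no source states whether 4-OHT stayed on beside the inhibitor, so effects of UNC0642 and of exposure time cannot be told apart in what follows or in the Stag3 and Tex11 values above. UNC0642-treated Setdb1 KO cells against Setdb1 KO cells gave 0 calls among the meiosis genes by edgeR without the block, where 0% of all genes were called. DESeq2 also called 0, with no share of all genes given here. At an unadjusted p under 0.05 in edgeR, 0 meiosis genes were higher and 5 lower. Of all 15313 genes, 430 were higher and 290 lower at that p. The difference of the joint change from the sum of the single changes was called for 0 of 34 by edgeR, where 0% of all genes were called. At an unadjusted p under 0.05 there were 0, against 28 higher and 91 lower of all 15313 genes. Of the 34 estimates 30 were below 0, where 47.1% of all genes had estimates above 0. With the block 0 were called as well, again with 0% of all genes, and 6 were lower and 0 higher at an unadjusted p under 0.05 (Stag3, Tex11, Majin, Hormad2, Syce1 and Terb2). Of all 15313 genes, 241 were lower and 127 higher at that p with the block.

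Markers of 2-cell stage embryos moved in the same libraries. By edgeR 7 of 7 were called higher in UNC0642-treated Setdb1 KO cells, where 3.08% of all genes were higher. In Setdb1 KO cells 1 (Usp17le) was called higher (0.882% of all genes), and in UNC0642 cells 0 were (0% of all genes). With the block 7, 6 and 2 were called in these groups, where 8.09%, 2.8% and 0.176% of all genes were higher. Summed over the 7 markers, they were at 8.01 and 22.4 CPM in WT cells and 684 and 239 in UNC0642 cells. Levels after deletion were 327 and 134 in Setdb1 KO cells and 1209 and 533 in UNC0642-treated Setdb1 KO cells. UNC0642 cells had more of these transcripts than Setdb1 KO cells within each replicate. In all of the treated groups replicate 1 had more of these transcripts than replicate 2, as for Sycp1. Their part in the changes of the meiosis genes was not tested. Summed over the 6 primitive endoderm markers, levels were 10.6 and 39.8 CPM in WT cells, 56.7 and 58.9 in UNC0642 cells, 11.3 and 19.6 in Setdb1 KO cells and 21.2 and 16.9 in UNC0642-treated Setdb1 KO cells. These sums were highest in the UNC0642 libraries. Summed trophectoderm markers ranged from 14.8 to 69.7 CPM, with the highest value in 1 Setdb1 KO library, and fibroblast markers from 3.98 to 20.6 CPM, with replicate 2 above replicate 1 in all 4 groups. The part of these markers in the changes of the meiosis genes was not tested either.

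Genes with related roles outside the list moved in part. Of 19 other meiosis genes, 13 were found and 11 tested, and Zcwpw1, a reader of the histone marks that Prdm9 writes, was higher in Setdb1 KO cells (log2 fold change 2.92 ± 0.41, edgeR adjusted p = 0.0131) and in UNC0642-treated Setdb1 KO cells (1.93 ± 0.39, adjusted p = 0.0281). Of all genes, 0.882% and 3.08% were called higher in these groups. Zcwpw1 levels were 14.6 and 9.92 CPM in WT cells and 14.3 and 12.6 in UNC0642 cells. With the deletion, values were 97.4 and 88.3 in Setdb1 KO cells and 49.1 and 44.2 with both, so the libraries of deleted cells did not overlap with the rest. Its exons overlap those of Pilra on the opposite strand by 468 bases, and reads from the shared stretch cannot be told apart. Of 20 mitotic counterparts and shared repair genes, such as the mitotic cohesin subunits Rad21, Smc1a and Stag2, 0 were called by edgeR without the block in the 3 comparisons with WT, and their median log2 fold changes were -0.10, -0.08 and -0.08. With the block 3 were called, among them Brca2 and Sun1, which were lower with both perturbations (-0.97 and -0.87, adjusted p = 0.0342 and 0.0294). In that comparison the block called 8.09% of all genes higher and 7.63% lower, so these calls do not set the list apart from all genes.

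**Figure D4:**
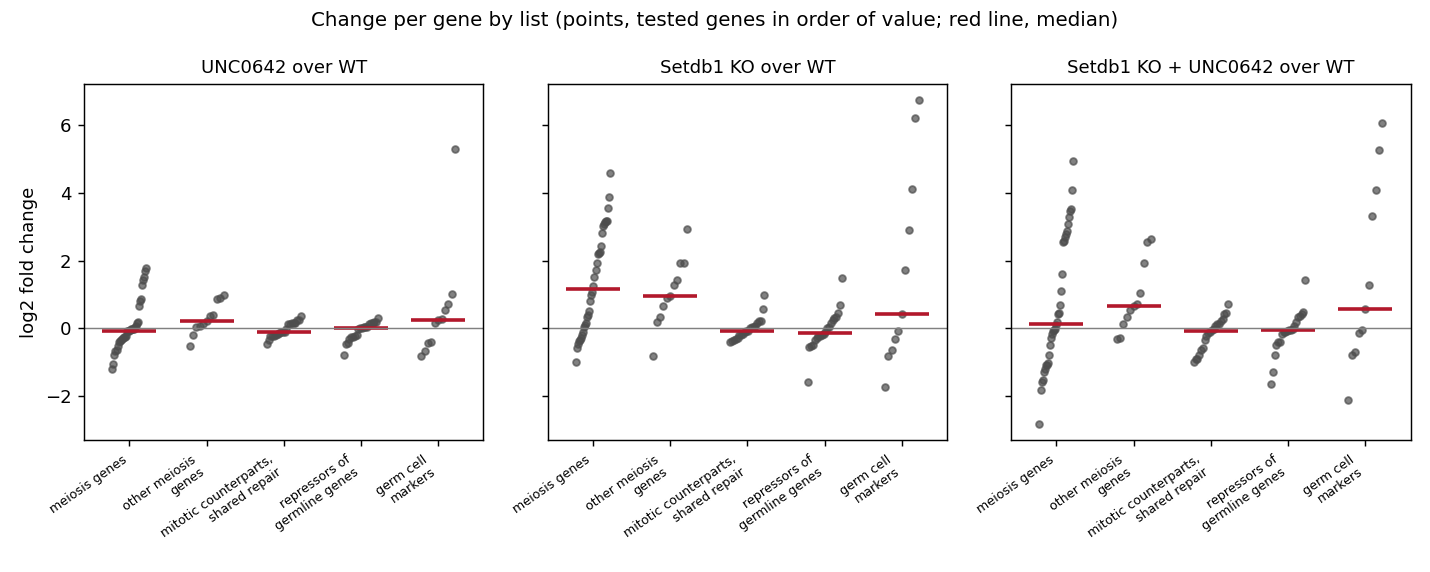
Log2 fold change to WT of each tested gene (points, in order of value) by list, with the list's median as a red line, in UNC0642 cells, Setdb1 KO cells and UNC0642-treated Setdb1 KO cells. In Setdb1 KO cells the meiosis genes spread from -1.01 to 4.58 with a median of 1.16, and the mitotic counterparts lie between -0.39 and 0.98. Of the meiosis genes, 8, among them Sycp2 at 4.58, were below the filter level in a WT library and tested because of reads elsewhere. Spreads and medians of the lists are therefore not compared like for like.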

How the data were processed

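RNA-seq of 8 mESC libraries was analysed. According to the labels and the study's methods, libraries were made with a KAPA mRNA HyperPrep kit, and reads were trimmed with Trim Galore 0.3.7 and mapped to mm10 with TopHat2; counts were made with TEtranscripts. The deposited files hold raw counts for genes and for subfamilies of transposable elements, assigned by the authors, without normalization. The strand setting of the counting is not given in the sources used here. Groups were taken from the labels. The meiosis genes, the other lists and the motifs were chosen with earlier results of these data known.

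After filterByExpr (at least 10 counts, 15 in total), 15313 genes and 932 subfamilies were fitted together over all 8 libraries with edgeR 4.0.16 (R 4.3.3, quasi-likelihood F test, TMM factors 0.810 to 1.20, prior count 0.125), with Benjamini-Hochberg adjustment over all features, and called at an adjusted p under 0.05. CPM are TMM-normalized, and RPKM are these per kilobase of exon union (GENCODE M21). The code was tested on simulated data. Genes given with a test are those called with or without the replicate block, or otherwise the 3 with the smallest p, and of other lists at most the 3 with the smallest p among those called.

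The labels number the replicates in each group. Deviations of same-numbered libraries from their group means correlated for all 6 pairs of groups (r = 0.285 to 0.663), which meets the rule set for pairing, although no source says that they were grown as pairs. Results of a fit with the number as a block are therefore given where they change a call. No libraries were identical. DESeq2 1.42.0 and other settings served as alternatives. The study's own thresholds were DESeq2 with a fold change above 10. The SE of a log2 fold change is its absolute value divided by the square root of the F statistic of the edgeR test. One gene of the mitotic list that the block called is not reported here.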

Additional observations from a re-analysis of the deposited data

How the results depend on the processing

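With 2 libraries a group the number of calls depends on how the spread is estimated, and the cause of the differences between settings was not tested. Shares of all genes stand beside the counts where given. Counts without a share do not tell a change of these genes from a change of all genes. In Setdb1 KO cells against WT, 2 meiosis genes were higher in the reported fit (0.882% of all genes) and 11 with the replicate block (2.8%). DESeq2 on the 4 libraries compared gave 11 (2.28%), and a fold change above 10 left 1 (0.731%). There were 4 without the expression filter, 11 with DESeq2 on all 8 libraries and 5 with edgeR on the 4 libraries. In UNC0642-treated Setdb1 KO cells against WT, 5 were higher in the reported fit (3.08% of all genes) and 11 with the replicate block (8.09%). DESeq2 on the 4 libraries gave 10 (5.07%), and a fold change above 10 left 2 (2.61%). With total counts as library sizes 3 were higher, with DESeq2 on all 8 libraries 10, and with edgeR on the 4 libraries 8. The 1 lower gene, Rec8, became 2 with the block, 0 with total counts and 0 at a fold change above 10. Against UNC0642 cells, 3 higher became 8 with the block, 0 with total counts, 1 after thinning to the smallest library, 6 with DESeq2 on all 8 libraries, 1 with edgeR and 6 with DESeq2 on the 4 libraries. Against Setdb1 KO cells, 0 lower became 1 with the block. Total counts moved the median log2 fold change of all genes by -0.16 in UNC0642-treated Setdb1 KO cells against WT and by -0.20 against UNC0642 cells.

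Of the other lists, 1 further meiosis gene called became 2 with the block, 0 mitotic counterparts became 3 with the block, and 0 repressors became 3 with the block, 1 with total counts and 1 with DESeq2 on all 8 libraries. Against WT the block called 2.8% of all genes higher and 0.522% lower in Setdb1 KO cells. With UNC0642 added it called 8.09% higher and 7.63% lower.

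Leaving out each of the 8 libraries in turn gave 0 to 3 higher in Setdb1 KO cells, 0 to 7 higher and 0 to 1 lower in UNC0642-treated Setdb1 KO cells, 0 to 3 higher against UNC0642 cells, and 0 to 1 of the further meiosis genes. The lone library left in a group is then assumed to vary like the other groups. No share of all genes is given for these fits, so their counts do not tell a loss of calls in these genes from a loss in all genes. Without WT replicate 1 or WT replicate 2, 0 meiosis genes and 0 further meiosis genes were called against WT. Without either Setdb1 KO library 1 was higher in that group, and without Setdb1 KO replicate 1 the further gene, Zcwpw1, was not called. Without either UNC0642-treated Setdb1 KO library the counts were 2 higher and 0 lower against WT, and against UNC0642 cells 0 were higher without any 1 library of either group. For the 33 tests of named meiosis genes, 594 alternative values gave 0 reversed directions. These tests were picked for being called in the reported fit (11 of them) or with the block, and the block is among the alternatives. The lack of reversals follows in part from that choice. Counts near 0 in WT limit the folds of Sycp2, Tex12 and Spata22, and of the germ cell marker Tex101. No difference was detectable for Spo11 at this depth.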

Other observations

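Germ cell markers outside meiosis were mixed. Of 14 such markers, 11 were tested, and edgeR called 3 higher in each group of deleted cells against WT, where 0.882% of all genes were higher in Setdb1 KO cells and 3.08% with UNC0642 added. These were Dazl, an RNA-binding protein of germ cells, Taf7l, a germ cell form of a general transcription factor subunit, and Tex101, a surface protein of germ cells. In each group 5 of the 11 had log2 fold changes below 0, down to -1.74 (Prdm1) in Setdb1 KO cells and -2.13 (Nanos3) with UNC0642 added. With the block Ddx4 was also called higher in both groups (edgeR adjusted p = 0.00643 and 0.00991), and Prdm1 was called lower in Setdb1 KO cells (0.0168). Dazl was at 6.01 and 15.04 CPM in WT cells, 9.82 and 15.3 in UNC0642 cells, 95.1 and 64.1 in Setdb1 KO cells and 97.5 and 115 in UNC0642-treated Setdb1 KO cells. Tex101 was at 0.348 and 0.469 CPM in WT cells and at 23.7 and 39.6 CPM in Setdb1 KO cells, a log2 fold change of 6.22 ± 0.82 (edgeR adjusted p = 0.0114). In WT replicate 1 it was below the expression filter level of 0.436 CPM, so it was tested because of reads elsewhere. The count of 3 among the 11 tested markers therefore does not describe all 14. Taf7l had log2 fold changes of 4.13 ± 0.53 in Setdb1 KO cells (edgeR adjusted p = 0.0108) and 4.09 ± 0.53 with UNC0642 added (adjusted p = 0.00573).

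Among 20 known repressors of germline genes, 0 were called by edgeR without the block. Atf7ip, a binding partner of SETDB1, was at 102 and 94.1 CPM in WT cells, 341 and 211 in Setdb1 KO cells and 373 and 155 in UNC0642-treated Setdb1 KO cells, and was called higher in both with the block (adjusted p = 0.0339 and 0.0223). Ehmt2 was at 99.0 and 200.3 CPM in WT cells and 60.6 and 61.6 in UNC0642-treated Setdb1 KO cells, where the block called it lower (log2 fold change -1.20, adjusted p = 0.0235), and Ehmt1 was not called (-0.40 without the block). The block called 2.8% of all genes higher and 0.522% lower in Setdb1 KO cells. In UNC0642-treated Setdb1 KO cells it called 8.09% higher and 7.63% lower, so these calls do not set the repressors apart from all genes.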
